A study of Mus musculus with 12 samples.

Results

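Krt5, Krt14, Krt15, Krt1, Krt10 and Krt77 encode the structural keratins of unwounded epidermis, and they were followed here in cultured mouse keratinocytes and in mouse skin. They are 6 of the 12393 genes measured, chosen by their symbol in the platform annotation, and were read by 8 of 22626 probe sets. Krt14 had 3 probe sets and the other genes 1 each. The 12 arrays, with 1 RNA sample each, came from 2 primary keratinocyte cultures of newborn mice with a mixed C57, DBA and FVB background (mixed cultures), 3 such cultures of newborn FVB mice (FVB cultures), 5 samples of skin from mice of mixed background aged 30 days, and 2 samples of skin from newborn FVB mice. Each culture held cells of 5 mice pooled, grew in low-calcium medium for no longer than 3 days and was not passaged. Strain and age coincide within skin and cannot be told apart there, whereas both kinds of culture came from newborn mice. No label ties a skin sample to an animal of its own. The p-values therefore reflect variation among the samples in hand, and part of it may be technical.

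Keratins form the filaments of epithelial cells and polymerise only as pairs of a type I and a type II protein. Cells of the basal layer, which divide and rest on the basement membrane, make the type II keratin Krt5 with the type I keratin Krt14. On leaving that layer they turn to the type II keratin Krt1 with the type I keratin Krt10. Krt15 is a further type I keratin of basal cells and of the hair follicle bulge, and Krt77 is a type II keratin close to Krt1, described in human skin in the ducts of sweat glands. In culture, little calcium holds keratinocytes in a basal-like state, and raised calcium starts their differentiation.

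The sequences before the annotated start sites of a basal and a pair of suprabasal members are shown because these genes moved in opposite directions between culture and skin. Each is the last 120 bases before the start, taken from RefSeq on GRCm38.p6, minus strand, written 5′ to 3′, with capitals for matches to any motif searched.
Krt5, chr15:101712906-101713025: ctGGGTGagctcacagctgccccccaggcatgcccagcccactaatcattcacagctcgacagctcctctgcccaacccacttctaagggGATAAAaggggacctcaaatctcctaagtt
Krt10, chr11:99389365-99389484: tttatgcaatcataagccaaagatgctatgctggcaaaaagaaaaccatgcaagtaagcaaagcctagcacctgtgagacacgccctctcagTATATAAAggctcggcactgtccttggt
Krt77, chr15:101869706-101869825: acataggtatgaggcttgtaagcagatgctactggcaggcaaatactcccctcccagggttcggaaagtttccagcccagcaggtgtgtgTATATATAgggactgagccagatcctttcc
Each motif was searched on both strands of the 250 bases before the start, and its share is that of 32544 promoters of the same length. A first motif, the common core of the TATA box, is TATAAA, found in 12.3%. A further form of the box, which can overlap it, is TATATA, with a share of 5.0%. A variant with another first base, GATAAA, has a share of 8.8%. For AP-2 the letters GCCNNNGGC were used, present in 13.8%. For AP-1 they were TGANTCA, present in 6.7%. Kruppel-like factors were searched by CACCC, present in 52.1%, and the last was the box CCAAT, present in 33.8%. Krt10 held both TATA forms, overlapping each other, from 28 and 26 bases before the start. Krt77 held TATATA in an overlapping pair from 30 and 28 bases before it, and Krt5 held GATAAA from 30 bases before it. The capitals at the left end of the Krt5 stretch are GGGTG, which is CACCC read on the other strand. None of these 3 promoters held the AP-1 or AP-2 letters in this window. The members shown belong to different layers, and each window held one of the AT-rich motifs close to the same distance from the start. Krt14 was searched too but is not shown. The start used for Krt14 lies inside the annotated span of its gene, as does that of Krt10. The Krt14 window held none of the AT-rich motifs. As it lies within the gene span, this cannot show whether Krt14 shares the position. Krt1 and Krt15 had no promoter sequence to search.

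Signals are log2 values from RMA, which removes background, gives all arrays a like distribution and combines the probes into 1 value per probe set. They carry no count and no detection call, and the number of arrays limits the precision. Probe sets differ in their response, so levels of different genes are not compared. In 30-day skin, replicate 1 was unlike the rest by a measure of RNA quality. Its 3′ actin probe set exceeded the 5′ probe set by 1.74, and this gap was 0.67 to 0.82 for replicates 2 to 5, 0.21 to 0.74 for cultures and 0.99 and 1.14 for newborn skin. Leaving this array out changed no call of a keratin probe set in any comparison. Some arrays of a group were much closer to each other than the rest, with an SD of differences of 0.158 between the mixed cultures, 0.170 between replicates 2 and 3 and 0.176 between replicates 4 and 5 of 30-day skin, against 0.226 to 0.417 for other pairs except the newborn skin pair at 0.203. The cultures had high signal of pan-epithelial genes and low signal of fibroblast markers, but melanocyte markers reached the levels of skin in mixed cultures. The culture mean over 22 pan-epithelial genes was 8.49 to 8.69, against 8.09 to 8.33 in 30-day skin and at most 8.01 in newborn skin. Their mean over 9 fibroblast markers was 5.78 to 6.55, against 10.55 to 11.14 in 30-day skin and 11.22 and 11.27 in newborn skin, with 4 of the 9 below the median of every culture array and Vim the brightest at 8.64. Over 7 melanocyte markers the mean was 8.45 and 8.52 in mixed cultures and 6.91 to 7.01 in FVB cultures, against 8.43 to 8.93 in 30-day skin and at least 7.93 in newborn skin. In such bulk samples fewer cells of a type and less RNA per cell cannot be told apart, and skin holds many cells besides keratinocytes.

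Cultures carried more Krt5 and Krt14 signal than skin of either age and less Krt15, Krt1, Krt10 and Krt77. The lower signals ran from 1.53-fold for Krt1 in FVB culture to 85.1-fold for Krt77 in mixed culture, both against 30-day skin. Among the higher ones, Krt14 probe set 1455573_at was least, at 1.45-fold in mixed culture against newborn skin. Krt14 probe set 1460347_at was most, at 3.55-fold in FVB culture against 30-day skin. All 8 probe sets passed the test in each of the 4 comparisons of a culture strain with a skin age, with the 4 probe sets of Krt5 and Krt14 higher and those of the other 4 genes lower. The background is high. In the comparison matched for strain and age of mice, FVB culture against newborn skin, 34.4% of all 22626 probe sets passed (limma, adjusted p under 0.05), 19.6% of all being higher and 14.8% lower. For mixed culture against newborn skin the shares were 33.6% in all, 17.6% higher and 16% lower. Against 30-day skin they were 46.7%, 27% and 19.6% for FVB culture and 37.5%, 21.4% and 16.2% for mixed culture. Passing by itself is therefore common, and the sizes below carry more of the description. These comparisons share samples with each other.

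**Figure D1:**
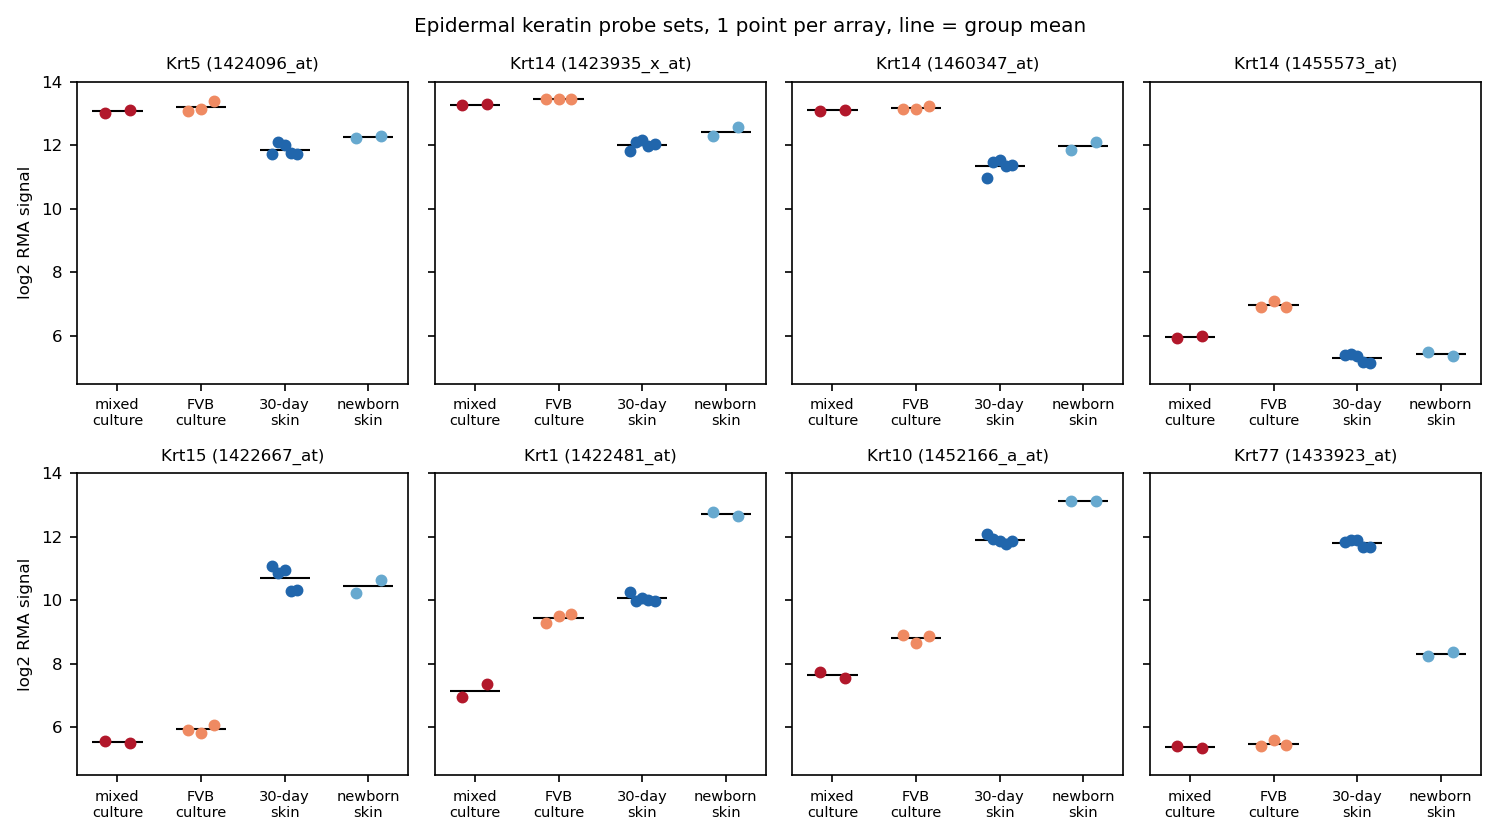
Log2 RMA signal (y axis) of the 8 probe sets of the 6 keratin genes in mixed culture, FVB culture, 30-day skin and newborn skin, 1 point per array, with lines at group means. Krt5 and the 2 bright probe sets of Krt14 lie at 13.02 to 13.44 in culture and 10.98 to 12.56 in skin, while Krt15, Krt1, Krt10 and Krt77 lie lower in every culture than in any skin sample.

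Krt5, the type II partner of the basal pair, read 13.02 and 13.11 in mixed cultures and 13.06, 13.13 and 13.38 in FVB cultures. It read 11.72, 12.09, 11.99, 11.76 and 11.73 in 30-day skin and 12.21 and 12.27 in newborn skin. Every culture lay above every skin sample, and the strains of culture overlapped. Against newborn skin the FVB cultures were higher by 0.95 ± 0.14 (SE, adjusted p = 0.00010, limma), a 1.93-fold difference, and the mixed cultures by 0.83 ± 0.15 (SE, adjusted p = 0.00070, limma). Against 30-day skin the differences were 1.33 ± 0.11 and 1.21 ± 0.13 (SE). Centred on the pan-epithelial genes, which were themselves higher in culture, the differences from newborn skin were 0.32 for Krt5 in FVB cultures (adjusted p = 0.044, limma) and 0.31 in mixed cultures, which no longer passed (adjusted p = 0.077, limma). The mixed and FVB cultures did not pass a test against each other, at -0.12 with a 95% interval of -0.42 to 0.17.

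Krt14, the type I partner, had 2 bright probe sets that gave a like picture. The brighter, 1423935_x_at, read 13.25 and 13.29 in mixed cultures and 13.44 in each FVB culture, against 11.81, 12.10, 12.15, 11.96 and 12.04 in 30-day skin and 12.29 and 12.56 in newborn skin. In the 3 FVB cultures it was the highest value of its array. Probe set 1460347_at, without the _x_ mark that the platform gives to probes that may match other transcripts, read 13.08 to 13.22 in the 5 cultures, 10.98 to 11.52 in 30-day skin and 11.84 and 12.10 in newborn skin. It was 2.29-fold higher in FVB cultures than in newborn skin (1.19 ± 0.15, SE, adjusted p = 2.4e-05, limma) and 3.39-fold higher in mixed cultures than in 30-day skin (1.76 ± 0.13, SE, adjusted p = 2.23e-07, limma). Both bright probe sets separate culture from skin without overlap. With the pan-epithelial centring 1460347_at was still higher than in newborn skin, by 0.56 in FVB cultures and 0.61 in mixed cultures.

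The third Krt14 probe set, 1455573_at, for which the annotation lists no accession, behaved otherwise. It was dim, at 5.94 and 5.98 in mixed cultures, 6.90, 7.09 and 6.90 in FVB cultures, 5.16 to 5.44 in 30-day skin and 5.36 and 5.49 in newborn skin. It was higher in FVB cultures than in newborn skin by 1.54 ± 0.12 (SE) and in mixed cultures by 0.54 ± 0.13 (SE), the smaller difference falling to 0.02 with the pan-epithelial centring (adjusted p = 0.92, limma). It differed between strains of culture, by -1.01 ± 0.12 (SE, adjusted p = 0.00021, limma), mixed minus FVB. The mixed minus FVB differences of the bright ones were -0.17 and -0.07, and neither passed, but those probe sets lay within 0.50 of the highest value of their array in every culture, near the end of the scale. A further probe set shared by Krt17 and Krt14 was left out of the counts by the rule of choice and averaged 5.86 in mixed cultures, 5.91 in FVB cultures, 5.46 in 30-day skin and 5.41 in newborn skin. What the dim probe set detects was not tested.

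Krt15 went the opposite way from the other basal keratins. It read 5.58 and 5.52 in mixed cultures and 5.93, 5.81 and 6.08 in FVB cultures, near the array medians of 5.86 to 6.01. In 30-day skin it read 11.07, 10.87, 10.95, 10.30 and 10.31, and in newborn skin 10.24 and 10.65. The groups of skin overlapped, and each culture lay more than 4 below the lowest skin sample. FVB cultures were lower than newborn skin by -4.50 ± 0.22 (SE, adjusted p = 3.6e-09, limma), which is 22.7-fold, and mixed cultures lower than 30-day skin by -5.15 ± 0.20 (SE), which is 35.5-fold. Culture values this close to the array median leave the size of such folds uncertain, since signal over background was not measured. Among the samples of 30-day skin the replicates 4 and 5, one of the close pairs of arrays, were the low ones. Markers of the follicle bulge, where Krt15 is also made, had list means of 6.48 to 6.59 in cultures, 7.38 to 7.64 in 30-day skin and 7.57 and 7.63 in newborn skin, with 4 of 11 below the median of every culture array; their part in the Krt15 difference was not tested. Ages of skin did not pass a test against each other, at 0.26 with a 95% interval of -0.18 to 0.70, nor did strains of culture, at -0.39 with an interval of -0.87 to 0.09.

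Krt1, the type II keratin of the suprabasal pair, took 4 separate levels. It read 6.94 and 7.35 in mixed cultures, 9.27, 9.49 and 9.56 in FVB cultures, 10.27, 9.97, 10.06, 9.99 and 9.99 in 30-day skin and 12.78 and 12.64 in newborn skin. No groups overlapped, and each neighbour in that order differed from the next by the test. Against newborn skin the FVB cultures were lower by -3.27 ± 0.14 (SE, adjusted p = 1.1e-09, limma) and the mixed cultures by -5.56 ± 0.16 (SE, adjusted p = 2.65e-11, limma), folds of 9.63 and 47.1. Against 30-day skin the same cultures were lower by -0.62 ± 0.11 (SE, adjusted p = 0.00053, limma) and -2.91 ± 0.13 (SE, adjusted p = 1.24e-09, limma). How far culture stands below skin thus depends on which strain and which age are set against each other, and the smallest of these gaps is 1.53-fold.

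Krt10, its type I partner, kept the same order of groups with other gaps. It read 7.73 and 7.54 in mixed cultures, 8.91, 8.66 and 8.86 in FVB cultures, 12.10, 11.91, 11.87, 11.76 and 11.86 in 30-day skin, and 13.11 in both samples of newborn skin. No groups overlapped here either. FVB cultures were lower than newborn skin by -4.30 ± 0.12 (SE, adjusted p = 1.7e-11, limma), or 19.7-fold, and lower than 30-day skin by -3.09 ± 0.10 (SE), or 8.51-fold. For the mixed cultures the folds were 44.4 and 19.2. In newborn skin Krt10 ranked 10th and 7th from the top of its arrays, close to the upper end of the scale.

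Krt77 lay below the array medians of 5.86 to 6.01 in every culture and differed most between ages of skin. It read 5.41 and 5.35 in mixed cultures and 5.41, 5.61 and 5.44 in FVB cultures. In 30-day skin it read 11.83, 11.89, 11.91, 11.69 and 11.67, and in newborn skin 8.25 and 8.36. Sweat gland markers, of the structure named for its human counterpart, had list means of at most 6.05 in cultures, 5.29 to 5.63 in 30-day skin and 5.40 and 5.47 in newborn skin, and none of the 7 passed between ages of skin. The strains of culture overlapped and their difference of -0.11, with a 95% interval of -0.35 to 0.14, did not pass. Cultures of both strains lay below newborn skin, FVB cultures by -2.82 ± 0.11 (SE, adjusted p = 4.3e-10, limma), and below 30-day skin, FVB cultures by -6.31 ± 0.09 (SE, adjusted p = 2.6e-14, limma). Culture values this low leave the size of these differences and of their folds uncertain, since signal over background was not measured.

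**Figure D2:**
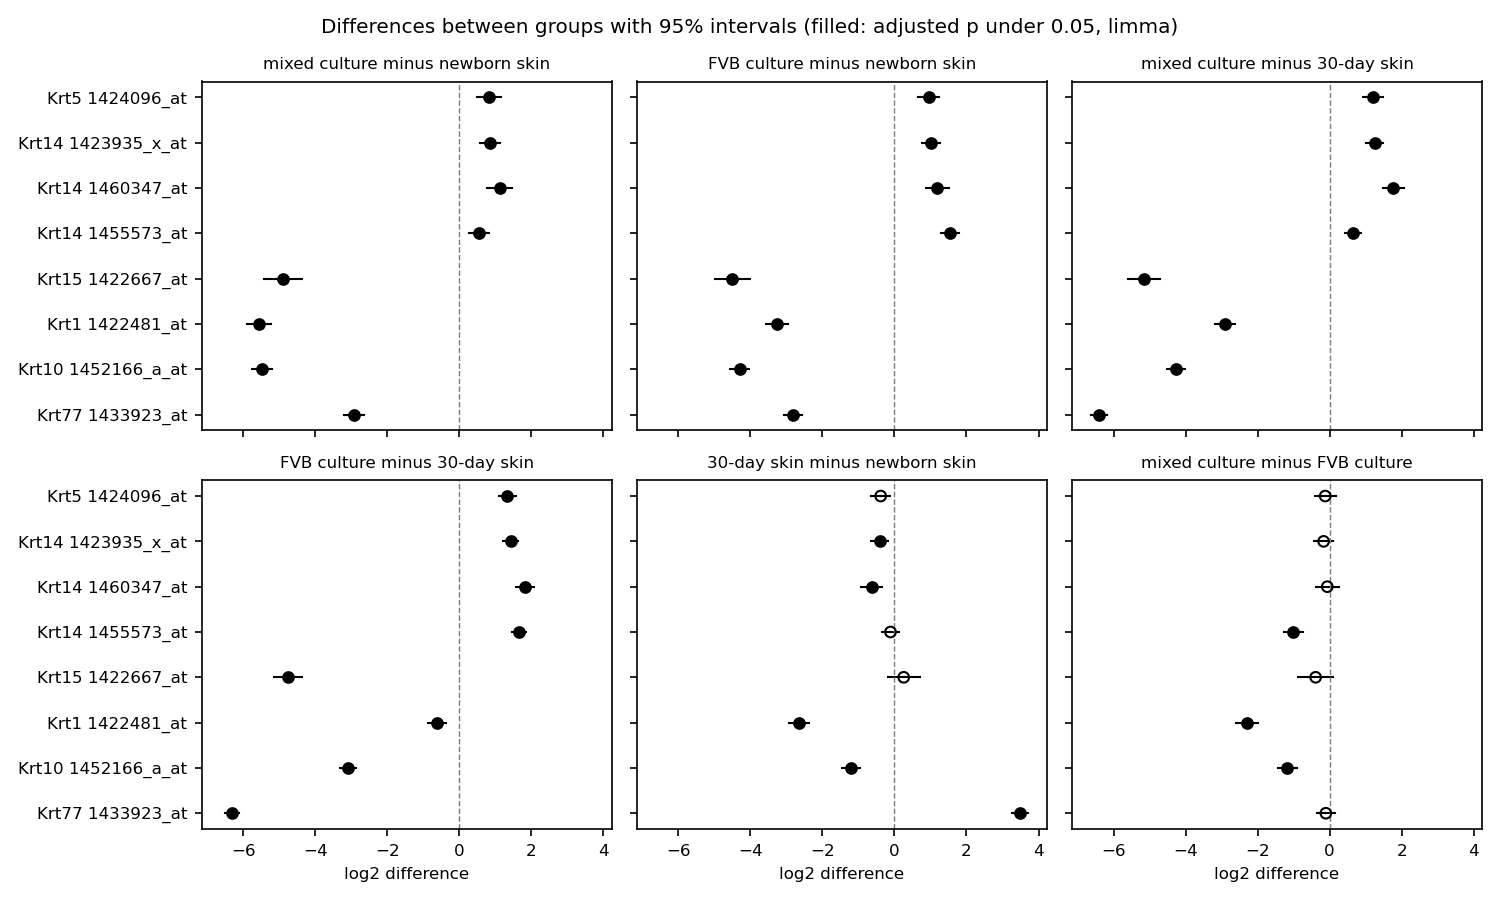
Log2 differences (x axis) of the 8 keratin probe sets in the 6 comparisons of pairs of groups, with 95% intervals; filled points passed an adjusted p of 0.05 in limma. Krt77 reaches -6.41 against 30-day skin but -2.92 against newborn skin, and Krt1 spans -5.56 to -0.62 over the 4 comparisons of culture with skin.

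Between ages of skin, where strain differs too, the suprabasal keratins parted ways. Krt77 was 11.2-fold higher in 30-day skin (3.49 ± 0.10, SE, adjusted p = 1.5e-10, limma), while Krt1 was 6.28-fold lower (-2.65 ± 0.13, SE, adjusted p = 2.0e-08, limma) and Krt10 2.31-fold lower (-1.21 ± 0.11, SE, adjusted p = 9.2e-06, limma). The pair of Krt1 and Krt10 fell by unequal amounts. Of the 8 probe sets 5 passed, 1 higher and 4 lower, against 17.2% of all probe sets, 6.9% being higher and 10.3% lower.

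Differences of the basal pair between ages were small. Krt14 was lower in 30-day skin by -0.64 ± 0.13 (SE, adjusted p = 0.0054, limma) with 1460347_at and by -0.41 ± 0.11 (SE, adjusted p = 0.022, limma) with 1423935_x_at. The second of these did not pass in 7 of 25 alternative settings, and both calls ended without replicate 2 of newborn skin (adjusted p = 0.12 and 0.32, limma). Krt5 differed by -0.38 with a 95% interval of -0.65 to -0.11 and just missed the adjusted threshold (adjusted p = 0.053, limma), while under 9 of 25 alternative settings it passed. Every 30-day sample nonetheless read below both newborn samples with Krt5, and with both bright probe sets of Krt14. Hair follicles also differed between these skins. All 12 measured hair shaft markers were higher in 30-day skin, with list means of 10.16 to 10.94 against 8.74 in both newborn samples, beside a background of 7.39% of genes higher. Their part in the keratin differences was not tested.

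The mixed cultures had less suprabasal keratin than the FVB cultures. Krt1 was 4.89-fold lower (-2.29 ± 0.14, SE, adjusted p = 2.2e-06, limma) and Krt10 2.26-fold lower (-1.17 ± 0.12, SE, adjusted p = 7.5e-05, limma), with both mixed cultures below all 3 FVB cultures. Together with the dim Krt14 probe set that made 3 of 8 probe sets called, all lower, against 9.22% of all probe sets called, 3.91% higher and 5.3% lower. Krt5, the bright Krt14 probe sets, Krt15 and Krt77 did not pass. In these cultures Krt5 and the bright Krt14 probe sets ranked 1 to 13 from the top of their arrays, where the scale has little room, so a missed test there does not show a lack of difference. The calls of Krt1 and Krt10 held in all 24 alternative settings that gave this comparison, with Krt1 between -2.50 and -2.09 and Krt10 between -1.35 and -1.06. Markers of other cells moved with strain as well. Of 7 melanocyte markers 6 were higher in mixed cultures, with list means of 8.45 and 8.52 against 6.91 to 7.01 in FVB cultures and 1 of the 7 below the median of every culture array, and of 9 fibroblast markers 4 were higher, with means of 6.50 and 6.55 against 5.78 to 5.89. Whether they have a part in the keratin difference was not tested.

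Differences between probe sets of the same array free the comparison from the scaling of whole arrays. Their absolute level has no meaning, since probe sets respond differently, but their change between groups does. Krt10 minus Krt14 was -5.51 and -5.76 in mixed cultures, -4.53, -4.77 and -4.58 in FVB cultures, 0.28, -0.19, -0.28, -0.20 and -0.18 in 30-day skin and 0.82 and 0.56 in newborn skin. Set against newborn skin, the suprabasal to basal balance of these type I keratins was lower by -5.32 in FVB cultures and by -6.32 in mixed cultures. For the type II pair, Krt1 minus Krt5 was lower than in newborn skin by -4.22 in FVB cultures, -6.39 in mixed cultures and -2.27 in 30-day skin. The partners did not shift alike. Krt10 minus Krt1 averaged 0.49 in mixed cultures, -0.63 in FVB cultures, 1.85 in 30-day skin and 0.40 in newborn skin. With Krt14 read by 1423935_x_at, as in all these balances, Krt5 minus Krt14 stayed between -0.38 and -0.02 on all 12 arrays. Its group means ran from -0.25 to -0.16, though both lie near the top of the scale in culture. The other bright Krt14 probe set, 1460347_at, did not keep such a steady distance from Krt5. It averaged 13.09 in mixed cultures and 13.16 in FVB cultures, beside 13.07 and 13.19 for Krt5. In newborn and 30-day skin it averaged 11.97 and 11.33, beside 12.24 and 11.86 for Krt5. Krt15 minus Krt14 was lower in FVB cultures than in newborn skin by -5.52. No test was run on these balances.

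**Figure D3:**
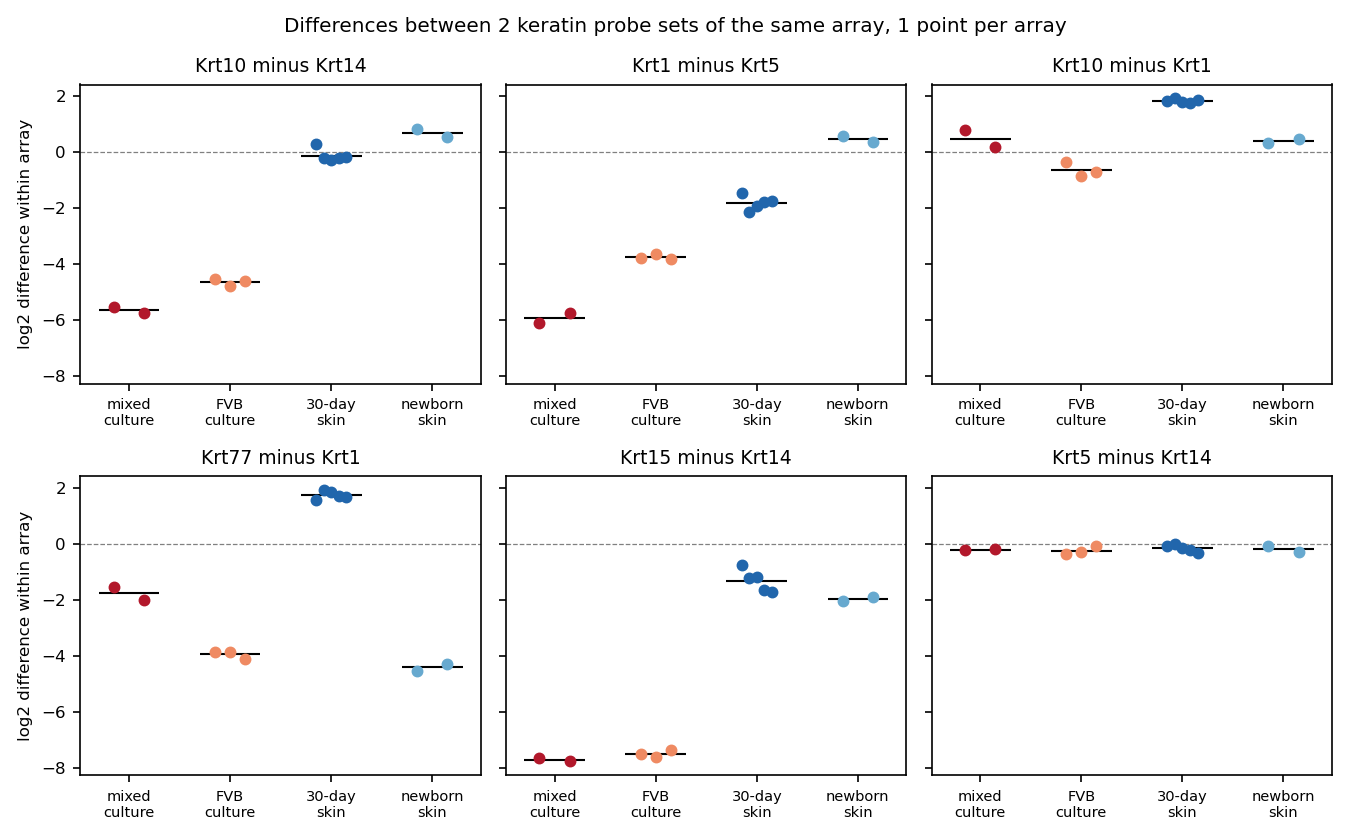
Difference in log2 signal between 2 keratin probe sets of the same array (y axis) in the 4 groups, 1 point per array, lines at means; Krt14 is 1423935_x_at. Krt5 minus Krt14 stays near 0 on all arrays, while Krt77 minus Krt1 averages 1.74 in 30-day skin and -4.40 in newborn skin.

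Many other genes of the basal layer were, like Krt5 and Krt14, higher in FVB culture. Of 20 measured genes of a basal layer list, 12 were higher and 3 lower in FVB culture than in newborn skin, with a median log2 difference of 0.95, against 20% of all genes higher, 18.3% lower and a median of 0.02. Lama3, a chain of the laminin that anchors basal cells, was higher by 3.04 ± 0.15 (SE) and Col17a1, a collagen of hemidesmosomes, by 2.59 ± 0.18 (SE). Postn and Igfbp5, also in the list but well known from dermal cells, were lower by -5.67 and -3.81. With arrays centred on the pan-epithelial genes the count was 9 higher and 6 lower, where 1038 of all 22626 probe sets were higher and 16096 lower.

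Most genes of the spinous and granular layers were lower, as Krt1 and Krt10 were. Of 24 measured, 15 were lower and 2 higher in FVB culture than in newborn skin, with a median of -1.09, against 18.3% of all genes lower and 20% higher. Hrnr, encoding hornerin, differed by -5.46 ± 0.29 (SE), Lce1a1, of the late cornified envelope, by -4.66 ± 0.36 (SE), and Lor, encoding loricrin, by -4.23 ± 0.16 (SE). Serpinb2, a protease inhibitor of stressed and differentiating keratinocytes, was higher by 4.31 ± 0.25 (SE). Between strains of culture the same list had 3 genes lower and 0 higher of 24 (limma), with a median of -0.21, against 6.25% lower and 2.99% higher over all genes. Without replicate 1 of 30-day skin 6 were lower, where 1786 of all probe sets were lower in place of 1200. The 3, named after their values were seen, were Klk7, a protease that sheds the cornified layer (-1.20), Krtdap, a keratinocyte differentiation gene (-1.09), and Dmkn, encoding dermokine (-0.45). Lor, at 0.05, was not among them. The basal layer list moved the same way between strains, with 5 of 20 lower, 0 higher and a median of -0.29. Filament partners had 2 of 17 lower and 1 higher (median -0.32), and other keratins 2 of 18 lower and 1 higher (median -0.003). Lower signal in mixed cultures was thus not confined to genes of the upper layers. With the pan-epithelial centring, the basal layer list and the spinous and granular list each had 2 lower, where 474 of all probe sets were lower.

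Genes that control epidermal keratins or their cells were compared in the same way. Of 26 measured regulators 8 were lower and 4 higher in FVB culture than in newborn skin, with a median of -0.30, against 18.3% of all genes lower and 20% higher. Dlx3, a homeobox factor of differentiating epidermis, was lower by -2.76 ± 0.21 (SE), and Notch3 by -1.72 ± 0.15 (SE), while Jag1, a Notch ligand, was higher by 2.71 ± 0.24 (SE). Satb1, a chromatin organiser, was lower in 30-day than in newborn skin by -1.90 ± 0.25 (SE) and did not pass in FVB culture against newborn skin, at -0.67. Mixed cultures had 9 of the 26 lower than FVB cultures and 0 higher, with a median of -0.42, against 6.25% of genes lower. Among these 9, chosen for mention after their values were seen, were Vdr, the vitamin D receptor (-1.39), Tfap2a, the gene of AP-2α (-1.14), Klf4, a factor of the upper epidermis (-0.84), and Trp63, the master regulator of stratified epithelia (-0.70). The 9 became 6 with arrays centred on the pan-epithelial genes, and 13 without replicate 1 of 30-day skin, which enters this comparison through the shared estimate of spread. Over all probe sets 1200 were lower, which became 474 with that centring and 1786 without that replicate.

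Partners of the keratin filament and other keratins showed no common direction. Of 17 filament partners 6 were higher and 6 lower in FVB culture than in newborn skin, against 20% of all genes higher and 18.3% lower. Dst, which holds filaments to hemidesmosomes, was higher by 1.65 ± 0.24 (SE). Flg, the gene of filaggrin that bundles keratin in the uppermost layers, was lower by -3.06 ± 0.55 (SE), and its difference between ages of skin, -1.55, just missed (adjusted p = 0.051, limma). Tchh, of the hair root sheath, and Vim, the mesenchymal filament gene, were lower by -3.93 and -4.00. With arrays centred on the pan-epithelial genes the partners counted 2 higher and 10 lower, where 1038 of all 22626 probe sets were higher and 16096 lower.

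Of 18 other epidermal and simple epithelial keratins, 8 were higher and 4 lower in FVB culture than in newborn skin, or 5 and 9 under that centring, beside the same shares over all genes (20% higher, 18.3% lower) and over probe sets. Krt16, a type I keratin of wounded epidermis, was higher by 3.89 ± 0.24 (SE), whereas Krt75 and Krt23 were lower by -4.64 ± 0.26 and -3.71 ± 0.23 (SE). Krt6b, a type II wound keratin, was lower in 30-day than in newborn skin by -3.90 ± 0.14 (SE). In FVB culture against newborn skin it was higher by 0.74 ± 0.15 (SE).

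Between ages of skin these lists gave mixed counts, beside 7.39% of all genes higher and 12.4% lower. In 30-day skin the spinous and granular list had 3 of 24 genes higher and 9 lower, and without replicate 1 of 30-day skin 7 higher and 10 lower. The basal layer list had 4 of 20 higher and 5 lower, the filament partners 4 of 17 higher and 2 lower (6 and 4 without that replicate), and the other keratins 4 of 18 each way. The regulators had 7 of 26 higher and 2 lower, a balance that turned to 2 higher and 7 lower with the pan-epithelial centring. That centring gave 1 higher and 7 lower for the basal layer list and 1 higher and 4 lower for the partners. Over all probe sets it gave 653 higher and 6698 lower, in place of 1562 and 2340, so these turns went with a shift of the whole array. Without replicate 1 of 30-day skin 2319 of all probe sets were higher and 2956 lower.

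**Figure D4:**
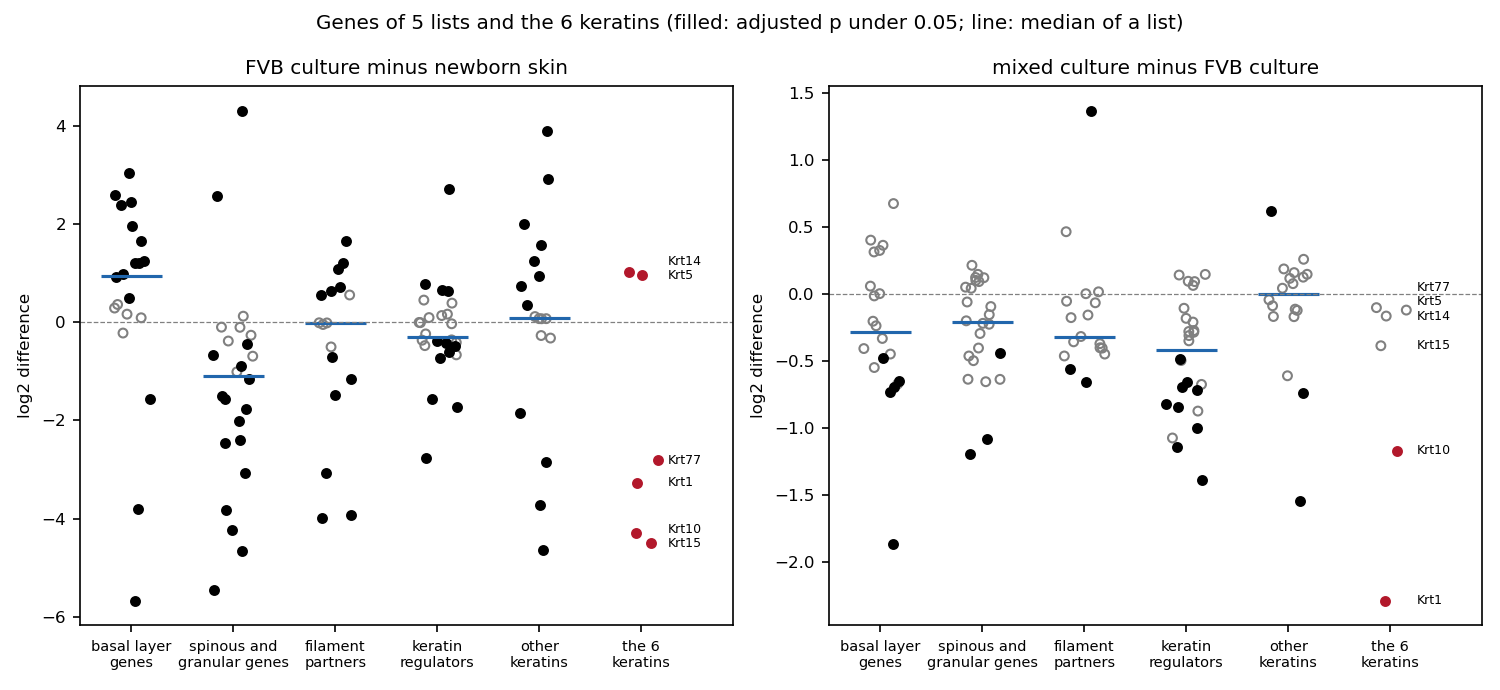
Log2 differences (y axis) of genes of 5 lists and of the 6 keratins, 1 probe set per gene, for FVB culture minus newborn skin (left) and mixed culture minus FVB culture (right); filled points passed an adjusted p of 0.05 and lines are list medians. On the right Krt1, at -2.29, lies below every gene of the 5 lists.

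The genes whose array profiles were most like each keratin were found by the root mean square difference between profiles over the 12 arrays, each centred on its own mean. For Krt5 the nearest were Gnb1 at 0.10 and Krt14 at 0.11, and for Krt14 they were Adsl at 0.10 and Eif6 at 0.11, with Krt5 the third. Their own profiles vary by 0.61 and 0.64 on that scale. For Krt1, whose profile varies by 1.63, the nearest was Calm4, a calmodulin of epidermis, at 0.47. It averaged 7.87 in mixed cultures, 9.31 in FVB cultures, 9.95 in 30-day skin and 11.86 in newborn skin, the same order of groups as Krt1.

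For Krt10 the nearest genes were Cd36, Cd34, Lor, 2310050C09Rik and Lce1a1, all at 0.45 or 0.46 with a profile of 2.01. For Krt15 they were led by Tnni2, a troponin of fast muscle, at 0.23, and 3 of the other 4 (Ttn, Eno3 and Tnnt3) are also known from muscle. Those genes share with Krt15 a low level in culture and a similar level at both ages of skin. Muscle markers had list means of 5.07 to 5.36 in cultures, 10.09 to 10.88 in 30-day skin and 10.62 and 10.76 in newborn skin. For Krt77 the nearest were Krtap4-2 at 0.35, Krtap9-3 at 0.52, Car6 at 0.56, Gm11567 and Krt81. Krtap4-2 averaged 3.82 in mixed cultures, 4.05 in FVB cultures, 10.15 in 30-day skin and 7.03 in newborn skin. Its family builds the hair shaft. Because samples fall into few groups, many genes share such profiles.

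The effect of culture was also set between strains, as mixed culture minus 30-day skin less FVB culture minus newborn skin, with the age of the skin changing alongside. Of the 8 probe sets 2 passed, both lower, against 8.48% of all probe sets, 4.63% being higher and 3.85% lower. They were Krt77 and the dim Krt14 probe set, whose call ended with the pan-epithelial centring (-0.52, adjusted p = 0.062, limma). Krt10 differed between strains in culture and between the skins, where age and strain coincide. For Krt10 this difference of culture effects was 0.03 with a 95% interval of -0.32 to 0.39, and for Krt1 it was 0.36 with an interval of -0.06 to 0.78.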

How the data were processed

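RNA of 12 mouse samples was measured on 12 Affymetrix arrays. The deposited values are log2 signals made by RMA, per the submitters' processing notes, with version and settings not given in the sources used here. They ran from 2.89 to 13.59. Of 22690 probe sets 64 controls were left out. In the platform annotation 20380 probe sets carried a single symbol, 691 carried several and 1555 lacked one. A gene identifier matched 20351 of those with a single symbol to RefSeq, and 0 symbols needed updating.

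Groups came from sample titles and the strain label. All 12 arrays entered 1 linear model with a mean for each of 4 groups, fitted by lmFit and eBayes of limma 3.58.1 in R 4.3.3 with two-sided tests, adjusted by Benjamini-Hochberg over 22626 probe sets. The threshold was an adjusted p of 0.05. Intervals are 95% and unadjusted. Lists used the probe set of highest mean per gene, of 12393, and 214 of their entries were measured and 36 not. Named genes were all members, the 5 nearest profiles each, and per list up to 4 called genes with the largest FVB culture or 30-day against newborn skin difference and 1 that missed. Members and lists were chosen with earlier results of these data known. The fit was tested on simulated arrays. Tables were made with pandas 2.3.3 and numpy 2.4.6, and plots with matplotlib 3.10.9, under Python 3.11.15. Alternatives covered scaling, filters, probe set choice, grouping, variance model, array weights, replicate numbers, thresholds and left-out arrays. List counts under other scalings, and averaging of close arrays, were added after seeing the data.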

Additional observations from a re-analysis of the deposited data

Results flagged for a closer look

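The difference between culture and skin was itself compared between strains, as mixed culture minus 30-day skin less FVB culture minus newborn skin, where the age of the skin changes with strain. A test of that difference picked out 2 of the 8 keratin probe sets, against 8.48% of all probe sets. Krt77 was lower in culture by -6.41 in the mixed strain and by -2.82 in FVB, a difference of -3.59 ± 0.15 (SE, adjusted p = 1.4e-08, limma). It read near 5.4 in both kinds of culture, and the skin levels differed. The dim Krt14 probe set 1455573_at was higher in culture by 0.65 in the mixed strain and by 1.54 in FVB, a difference of -0.90 ± 0.16 (SE, adjusted p = 0.0032, limma). With arrays centred on the pan-epithelial genes it was -0.52 and no longer passed (adjusted p = 0.062, limma), and it held in the other settings run except the one that also asks for a log2 difference of at least 1. Krt1 and Krt10, which differed between strains of culture and between skins, did not pass this test, at 0.36 and 0.03. No sample of 30-day skin stood apart from the other 4 by Dixon's test in any of the 8 probe sets, but so few values give that test little power. Replicate 1, the array unlike the rest in RNA quality, read 10.27 for Krt1, against 9.97 to 10.06 in the others. Its Krt10 minus Krt14 was 0.28, against -0.28 to -0.18 in the others, and no test was run on that balance.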

How the results depend on the processing

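No keratin difference that passed the test changed sign under any of the 25 alternatives, and the 8 calls of FVB culture against newborn skin, and of either culture against 30-day skin, held whenever an array was left out. Leaving out arrays gave 7 to 8 calls for mixed culture against newborn skin, 3 to 6 for 30-day against newborn skin (3 without replicate 2 of newborn skin), 3 for strain in culture and 2 for the comparison of culture effects. Asking for a log2 difference of at least 1 as well left 5 of 8 calls for mixed culture against newborn skin, 3 of 5 for the ages of skin and 1 of 2 for the culture effects. With 1 probe set per gene, which leaves out 2 of Krt14, the culture effects gave 1 call. Centring arrays on 22 pan-epithelial genes, which were themselves higher in culture, moved the median gene by -0.63 for FVB culture and -0.52 for mixed culture against newborn skin, by -0.37 and -0.26 against 30-day skin, and by -0.26 between ages of skin. By that construction it gave 5 keratin calls for the culture effects, 4 of them higher, and turned the balance of all calls in FVB culture against newborn skin to 1038 higher and 16096 lower from 4436 and 3356. For mixed culture against newborn skin it gave 1490 and 13508 in place of 3992 and 3614, for FVB culture against 30-day skin 2643 and 12328 in place of 6113 and 4444, and for mixed culture against 30-day skin 2647 and 7039 in place of 4831 and 3659. For ages of skin it gave 653 and 6698 in place of 1562 and 2340, for strains of culture 1385 and 474 in place of 885 and 1200, and for culture effects 5272 and 374 in place of 1047 and 871. Centring on the array median gave 7876 and 3456 for FVB culture against 30-day skin. Replicate numbers did not pair samples (correlations of deviations from -0.24 to 0.09), and with the replicate block the keratin calls were 8 in each comparison of culture with skin, 4 for ages, 3 for strains and 2 for culture effects, while all calls were 4965, 2179, 1304 and 598 for FVB culture against newborn skin, ages, strains and culture effects. Over all probe sets the counts for strains of culture ran from 318, with close arrays averaged (chosen after seeing the data), to 4962 with array weights, around 2085, and those for ages of skin from 777 with the fold limit, or 1459 without replicate 2 of newborn skin, around 3902. Without replicate 1 of 30-day skin the count for strains was 3295, and without replicate 1 or 2 of mixed culture 425 or 596, and without replicate 4 of FVB culture 1137. Without replicate 1 of newborn skin the count for ages was 1978. The culture effects gave 950 or 994 without replicate 1 or 2 of mixed culture and 1016 or 1167 without replicate 1 or 2 of newborn skin. An adjusted p under 0.01 left 2010 for ages, 763 for strains and 914 for culture effects, and close arrays averaged gave 2301 for ages and 5293 for mixed culture against 30-day skin. With 1 probe set per gene, and so fewer tests, counts were 4889, 4508, 6427 and 5133 for FVB and mixed culture against newborn skin and FVB and mixed culture against 30-day skin. For culture effects they ran from 598 to 5646 around 1918. The fold limit left 2581 to 2989 for the comparisons of culture with skin. Signal over background was not measured, which limits the size of differences from values near or below the array median.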
